A study of Homo sapiens with 12 samples.

Results

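ATP-binding cassette (ABC) genes encode proteins that use ATP to move drugs, drug conjugates, lipids, heme or peptides across membranes. The 70 probes of 42 ABC genes were described here in PANC-1 cells, an established human cell line of pancreatic ductal carcinoma, out of 47323 probes and 20046 named genes on Illumina bead arrays. A probe was a member when its platform gene symbol was ABC followed by a letter from A to G and digits, with nothing after them. The control cells (6 arrays, titled WildType) carried the integrated empty pLKO.1 puro lentiviral vector, and the knockdown cells (6 arrays, titled TIMP1_KD) carried pLKO.1 with a short hairpin RNA against human TIMP1, a secreted inhibitor of metalloproteinases. Both were grown with puromycin, without any further treatment named in the labels. The sources used here do not say whether each line was 1 clone, nor whether the 6 arrays of a group came from separate cultures, so the spread that the p-values rest on may be technical.

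Drug efflux pumps such as ABCB1 (P-glycoprotein), the ABCC multidrug resistance proteins and ABCG2 lower the amount of a drug in a cell, and ABCC4 and ABCC5 can also export nucleotide analogues. Gemcitabine, named in the title of the series, is a nucleoside analogue that cells convert to nucleotides. ABCA1 and ABCG1 hand cholesterol and phospholipid to lipoproteins, and their transcription is switched on by the sterol-sensing liver X receptors (LXR). The ABCD proteins counted here as peroxisomal (ABCD2 and ABCD3) carry very long chain and branched acyl groups into peroxisomes. Several ABCB proteins lie in the mitochondrial membrane. ABCE1 and the ABCF proteins have the ATPase domains without a membrane part and act on ribosomes.

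A probe passed the detection filter when 6 or more of the 12 arrays gave it a detection p, which compares it with the negative controls of the array, under 0.05. The number of detected probes ran from 15681 to 16565 over the controls and from 15898 to 17680 over the knockdown. Its highest values were those of knockdown 2 (17360) and knockdown 6 (17680), while no other array exceeded 16985. Levels are log2 intensities after background correction and quantile normalisation, and a log2 fold change is knockdown minus control. TIMP1 itself lay between 13.64 and 13.86 in the controls and between 13.49 and 13.63 in the knockdown, a log2 fold change of -0.19 ± 0.04 (SE; exact two-sided permutation p = 0.00216, the smallest that 6 against 6 arrays can give; limma adjusted p = 0.101 over all detected probes). On the linear scale the TIMP1 signal was lower by 12.5%, a small difference on these arrays. TIMP1 had 1 probe, and its levels lay near the top of the signal range. Whether the array reading understates the fall of the target was not tested, and the arrays do not measure the protein. All 6 duct and epithelial markers were detected (KRT7, KRT8, KRT18, KRT19, EPCAM and SOX9). Of other cell types, 2 of 8 acinar markers (PRSS1 and CELA3A), CD68 of 4 leukocyte markers with a probe and PECAM1 of 4 endothelial markers were detected, and none of 4 islet markers with a probe or of 6 fibroblast and stellate markers was. The summed linear level of PRSS1 and CELA3A, which encode digestive proteases, ran from 3040 to 3309 in the controls and from 2475 to 2986 in the knockdown. Most of the sum is PRSS1. Its log2 levels, 11.49 to 11.63 in the controls and 11.20 to 11.44 in the knockdown, did not overlap, as in 1.91% of all detected genes. CELA3A overlapped, with 7.03 to 7.77 against 6.34 to 7.69. The log2 fold changes were -0.19 for PRSS1 and -0.45 for CELA3A (limma adjusted p = 0.118 and 0.378). The part of these levels in the ABC results was not tested.

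Of the 42 ABC genes, 16 had a probe that passed the filter, or 38.1%, against 48.8% of all named genes. Among probes the shares were 24 of 70 (34.3%) and 16495 of 47323 (34.9%). For 21 of the genes no probe was detected on any array. By functional class, all 4 ABCE and ABCF genes passed, as did 2 of 3 mitochondrial genes (ABCB6 and ABCB10), 1 of 2 peroxisomal genes (ABCD3), 4 of 9 drug efflux genes (ABCC3, ABCC4, ABCC5 and ABCC10) and 4 of 17 lipid and sterol genes (ABCA1, ABCA2, ABCA9 and ABCG1). Of the remaining 7, ABCB9, a lysosomal peptide transporter, was the 1 that passed.

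The best known efflux pumps were among the genes not above background. Both probes of ABCB1 were detected on 0 of 12 arrays, with deposited signals of 158 to 203 and of 122 to 149 and a smallest detection p of 0.116. ABCG2, the breast cancer resistance protein, had signals of 126 to 152 and a smallest detection p of 0.648 on its single probe. ABCC2, the pump of conjugates at the apical membrane, had signals of 126 to 153. ABCB5 and the 3 probes of ABCC11 were also detected on no array. These 5 genes were not well above background in either group, so no fold change is given for them. The 40 ABC probes detected on no array had signals between 113 and 236.

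**Figure D1:**
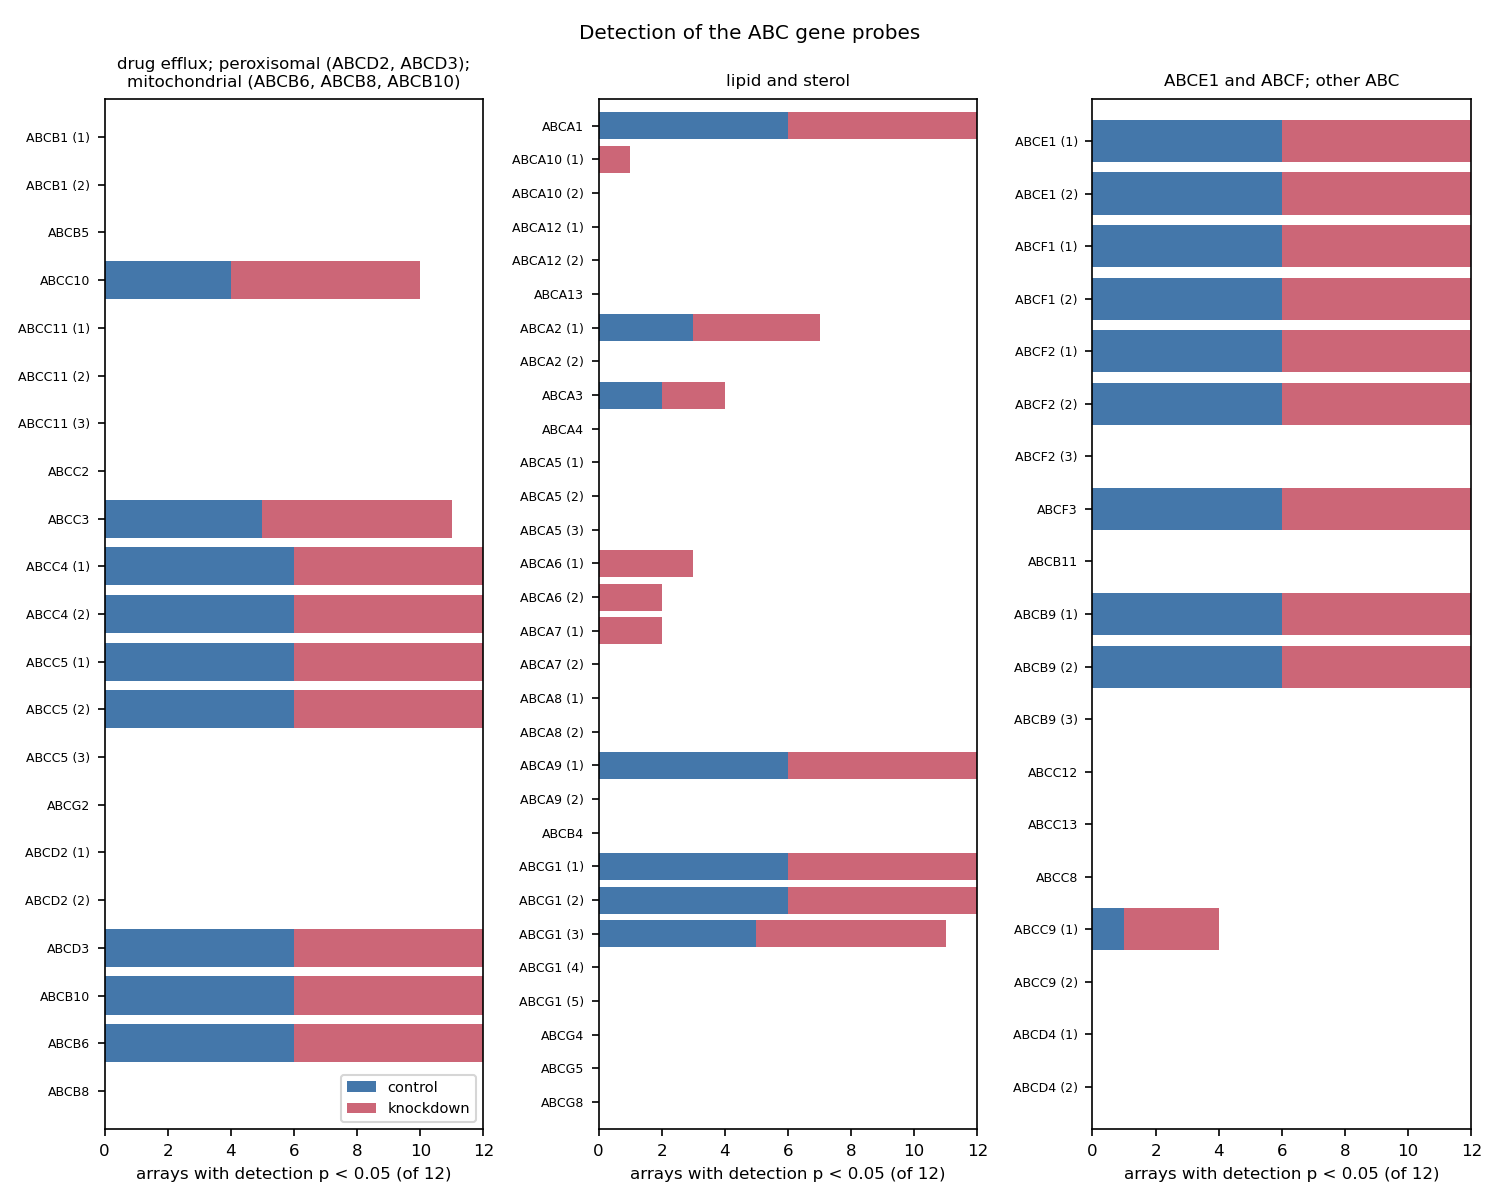
Number of arrays with a detection p under 0.05 for each of the 70 ABC probes (horizontal axis, 0 to 12), controls in blue and knockdown in red; numbers in brackets tell probes of 1 gene apart, from the highest mean to the lowest. ABCE and ABCF probes fill the axis except the third probe of ABCF2, while ABCB1, ABCB5, ABCC2, ABCC11 and ABCG2 have no bar.

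Among the 17 lipid and sterol genes 19 of 30 probes were detected on no array, including those of ABCA4, ABCA5, ABCA8, ABCA12, ABCA13, ABCB4, ABCG4, ABCG5 and ABCG8. ABCG5 and ABCG8 form the sterol exporter of liver and intestine, ABCB4 moves phosphatidylcholine into bile, ABCA12 serves the lipid barrier of skin, and ABCA4 a retinoid of the retina. A further 5 lipid probes were seen on some arrays without passing the filter. ABCA3, which loads surfactant lipid in lung, was detected on 2 control and 2 knockdown arrays. The other 4 probes (2 of ABCA6, 1 each of ABCA7 and ABCA10) were detected on no control array and on 1 to 3 knockdown arrays, always including knockdown 6, and for 3 of the 4 also knockdown 2. These are the arrays with the most detected probes over the whole platform, and their part in this was not tested. The knockdown mean of each of the 4 stayed below the detection floor of the control arrays, so no bound on a fold change can be given. ABCC9, a subunit of potassium channels, was detected on 1 control and 3 knockdown arrays, and its second probe on none.

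Promoter sequence was set beside detection. RefSeq (GRCh38.p14) promoters were at hand for 34 of the 42 ABC genes, and CpG dinucleotides were counted in the 250 bases before the start, taking for a gene with several starts the one with the most CpG. The 14 genes that passed the filter had a median of 26.5 CpG (range 1 to 54), and the 20 that did not had a median of 10 (range 1 to 42). At least 10 CpG were present in 13 of the 14 (92.9%) and in 10 of the 20 (50%). Over all 15033 named genes with a promoter the medians were 23 and 12 and the shares 90% and 55%, in the same order as in the ABC genes. With the first listed start of each gene the ABC medians were 22.5 and 5.5. The choice of start changed the count most for ABCA2 (54 against 12), which passed the filter and sets the top of its range, and for ABCG2 (32 against 2), ABCC11 (24 against 0) and ABCB1 (12 against 1), which did not pass. The arrays do not tell which start is used.

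The 100 bases just before the start are shown for a drug efflux pair and a lipid pair, each with a CpG-rich and a CpG-poor promoter and only 1 listed start, with CpG in capitals. In the efflux pair the CpG-rich gene was detected on all arrays (ABCC4) and the CpG-poor one on none (ABCC2), and in the lipid pair it was the other way round: ABCA9 was detected on all 12 arrays by 1 of its 2 probes with 1 CpG in 250 bases, and ABCA5 by none of its 3 probes with 42.
ABCC4, chr13:95301452-95301551, minus strand: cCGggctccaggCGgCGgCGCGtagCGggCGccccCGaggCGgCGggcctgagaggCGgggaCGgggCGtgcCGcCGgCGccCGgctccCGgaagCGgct
ABCC2, chr10:99782540-99782639, plus strand: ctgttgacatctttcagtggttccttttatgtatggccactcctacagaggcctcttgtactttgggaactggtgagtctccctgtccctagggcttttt
ABCA5, chr17:69327134-69327233, minus strand: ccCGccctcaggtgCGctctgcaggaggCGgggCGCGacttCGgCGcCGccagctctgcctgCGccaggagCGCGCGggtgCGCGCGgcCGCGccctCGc
ABCA9, chr17:69060928-69061027, minus strand: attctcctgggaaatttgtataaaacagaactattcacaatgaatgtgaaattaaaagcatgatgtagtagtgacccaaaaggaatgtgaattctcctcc

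**Figure D2:**
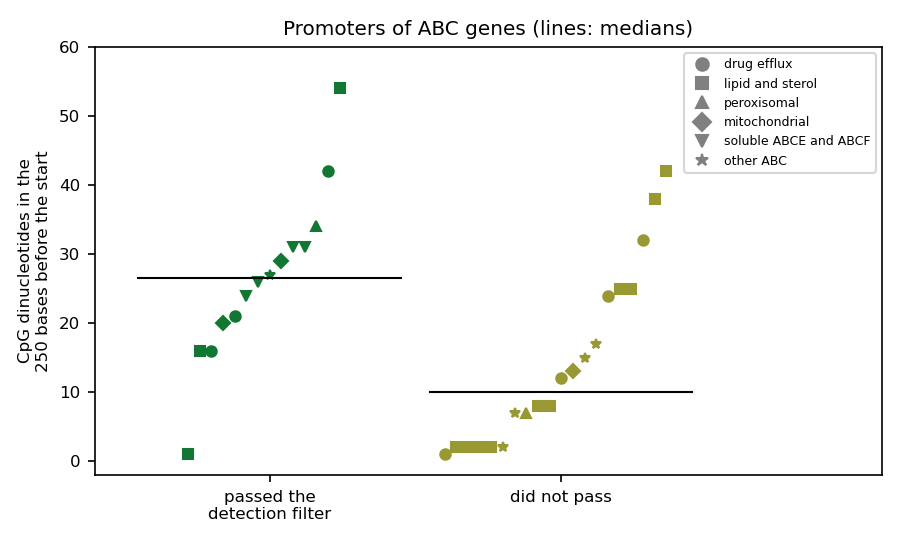
CpG dinucleotides in the 250 bases before the start (vertical axis) of 34 ABC genes, by whether the gene passed the detection filter; each symbol is a gene, its shape gives the class, and the lines are the medians (26.5 and 10). The lowest symbol on the left is ABCA9 with 1 CpG.

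The comparison of knockdown with control asked whether lower TIMP1 went with other levels of ABC transcripts. None of the 16 detected ABC genes, judged by the brightest probe of each, and none of the 24 detected probes passed limma's test (Benjamini-Hochberg adjusted p under 0.05 over all detected probes), where 0.303% of all detected probes (0.255% higher and 0.0485% lower) and 0.389% of all detected genes did. The smallest adjusted p was 0.187 for a probe of ABCC4 and 0.19 for ABCA1. An unadjusted limma p under 0.05 was found for 4 of 16 genes (ABCA1, ABCA9, ABCB10 and ABCF3), or 25%, against 15.0% of all detected genes, and 6 of 24 probes against 14.5%. The log2 fold changes of the 16 genes lay between -0.17 (ABCC3) and 0.24 (ABCA9), with 10 above and 6 below 0, of which 4 of those below moved above 0 with median scaling and 2 of those above moved below with cyclic loess. Their median was 0.02, as was that of all detected genes. For 15 of the 16 the 95% confidence interval lay within a 1.5-fold change either way (0.585 on the log2 scale), and for all 16 within a 2-fold change.

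**Figure D3:**
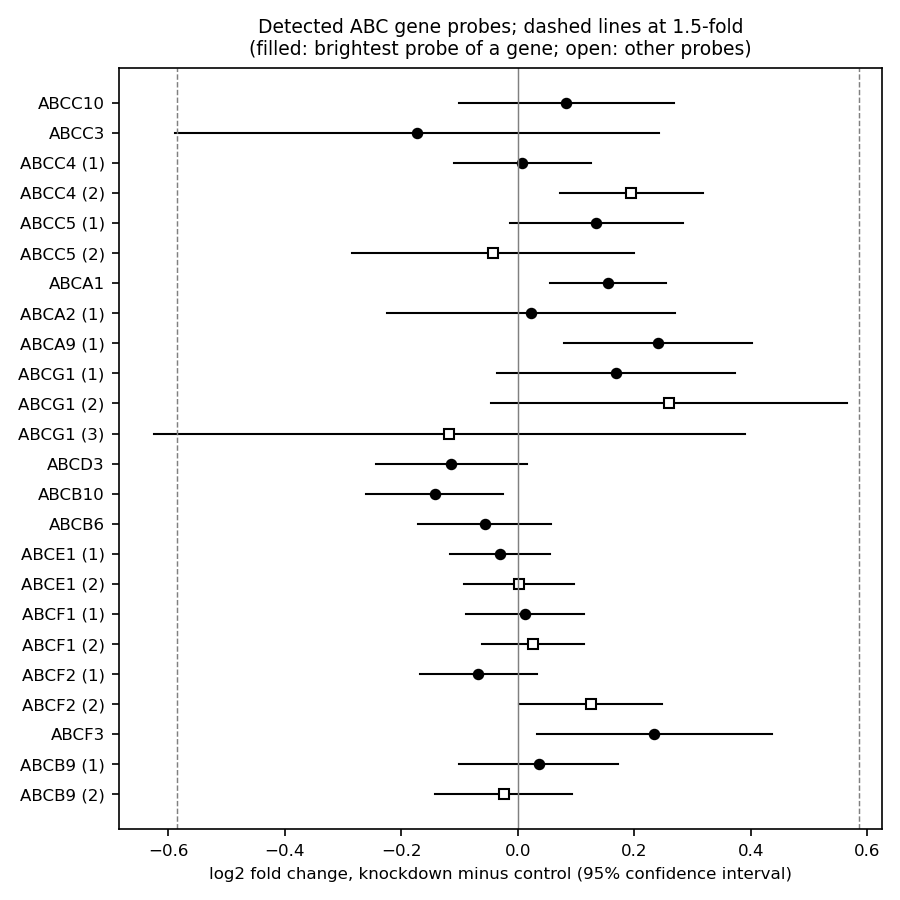
Log2 fold change (horizontal axis) with its 95% confidence interval for the 24 detected ABC probes; filled circles are the brightest probe of a gene and open squares its other probes. Except for ABCC3 and the third probe of ABCG1, every interval stays between the dashed lines at 1.5-fold.

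The 4 detected drug efflux genes showed no difference that passed the test. ABCC5, which exports cyclic nucleotides and nucleotide analogues, had values of 9.14, 9.21 and 9.45 (lowest, median and highest of 6) in the controls and of 9.26, 9.44 and 9.51 in the knockdown. The knockdown arrays 3, 5 and 6 exceeded every control, but controls 5 and 6 reached 9.41 or more, and the groups overlapped. The log2 fold change was 0.13 ± 0.07 (SE; limma adjusted p = 0.39; interval -0.01 to 0.28). The second detected probe had -0.04 (interval -0.28 to 0.20) and the last one was detected on no array.

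ABCC4, an exporter of cyclic nucleotides, prostaglandins and nucleotide analogues, gave different values on its 2 probes. The brighter one had 9.01, 9.21 and 9.25 in the controls and 9.09, 9.17 and 9.36 in the knockdown, a log2 fold change of 0.01 (interval -0.11 to 0.13). The dimmer one had 7.79, 7.89 and 7.98 in the controls and 7.95, 8.10 and 8.25 in the knockdown, a log2 fold change of 0.19 ± 0.06 (limma adjusted p = 0.187; interval 0.07 to 0.32). On that probe 4 of 6 knockdown arrays lay above every control. No sequence of either probe was used here, so which transcripts each of them reads was not tested.

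ABCC3, an exporter of glucuronides and bile salts, was the most variable of the detected ABC genes. It had 6.56, 7.17 and 7.87 in the controls and 6.81, 6.96 and 7.39 in the knockdown, and all 6 knockdown arrays lay within the range of the controls. This corresponds to a log2 fold change of -0.17 ± 0.19 (adjusted p = 0.703). Without control 1 it was -0.04, without control 6 it was -0.30, without knockdown 2 and 6 it was -0.29, and with the detected-probe count as a covariate it was -0.40. Its interval, -0.59 to 0.24, reaches to a fall of 1.5-fold. ABCC10, which exports taxanes and nucleoside analogues in cultured cells, was detected on 4 of 6 control and 6 of 6 knockdown arrays, close to the background. It had 6.50, 6.71 and 6.95 in the controls and 6.55, 6.85 and 6.93 in the knockdown, with a log2 fold change of 0.08 (interval -0.10 to 0.27).

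The 4 detected lipid and sterol genes all had log2 fold changes above 0 (ABCA2 was below 0 under 7 of 23 alternative settings, at -0.011 with cyclic loess normalisation, -0.02 without knockdown 2 and 6 and -0.10 with the detected-probe count as a covariate), with a median of 0.16 against 0.05 for the 4 drug efflux genes. The lipid median was 0.06 without knockdown 2 and 6. Neither class had a call, and no test was made of the difference between them. ABCA1, the exporter of cholesterol to apolipoprotein A-I, was the 1 detected ABC gene whose groups did not overlap, where 1.91% of all detected genes did not, and 1 of 24 ABC probes against 1.56% of all detected probes. It had 11.05, 11.08 and 11.13 in the controls and 11.15, 11.19 and 11.39 in the knockdown. This gave a log2 fold change of 0.15 ± 0.05 (limma adjusted p = 0.19; interval 0.06 to 0.25). The 2 highest arrays were knockdown 2 at 11.32 and knockdown 6 at 11.39, and the other 4 knockdown arrays lay between 11.15 and 11.21. Without these 2 arrays the log2 fold change was 0.09, and it was also 0.09 when each array's detected-probe count entered the fit as a covariate.

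ABCG1, which passes cholesterol to high-density lipoprotein, had 8.26, 8.32 and 8.49 in the controls and 8.34, 8.39 and 8.81 in the knockdown on its brightest probe. Knockdown 2 and 6 stood at 8.80 and 8.81, and the other 4 knockdown arrays lay within the range of the controls. The difference on the log2 scale was 0.17 ± 0.09 (adjusted p = 0.431), and 0.02 without knockdown 2 and 6. The second probe had 0.26 (0.08 without them) and the third, which ranged from 6.34 to 7.91 in the controls alone, had -0.12 (interval -0.62 to 0.39). A further 2 probes of ABCG1 were detected on no array.

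Knockdown 2 and 6 exceeded the other 10 arrays for 2 of the 16 ABC genes, ABCA1 and ABCG1, and for 13.9% of all detected genes. They stood below the other 10 for none of the 16 and for 6.13% of all detected genes.

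ABCA9 belongs to a cluster of ABCA genes on chromosome 17 and is described as a sterol-responsive gene of macrophages. It had 8.69, 8.82 and 9.06 in the controls and 8.91, 9.05 and 9.24 in the knockdown. Its difference on the log2 scale, 0.24 ± 0.07 (limma adjusted p = 0.199; interval 0.08 to 0.40), was the highest of the 16 genes, and 3 of the 6 knockdown arrays lay above every control, of which control 6 was the highest. Its value was 0.20 without knockdown 2 and 6. The second ABCA9 probe was detected on no array, as were all 3 probes of its chromosome 17 neighbour ABCA5, so the reading of ABCA9 rests on 1 probe. ABCA2, a lipid transporter of lysosomes best known in myelinating glia, was detected on 3 control and 4 knockdown arrays. It had 6.39, 6.55 and 6.85 in the controls and 6.30, 6.68 and 6.90 in the knockdown, with a log2 fold change of 0.02 (interval -0.22 to 0.27).

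**Figure D4:**
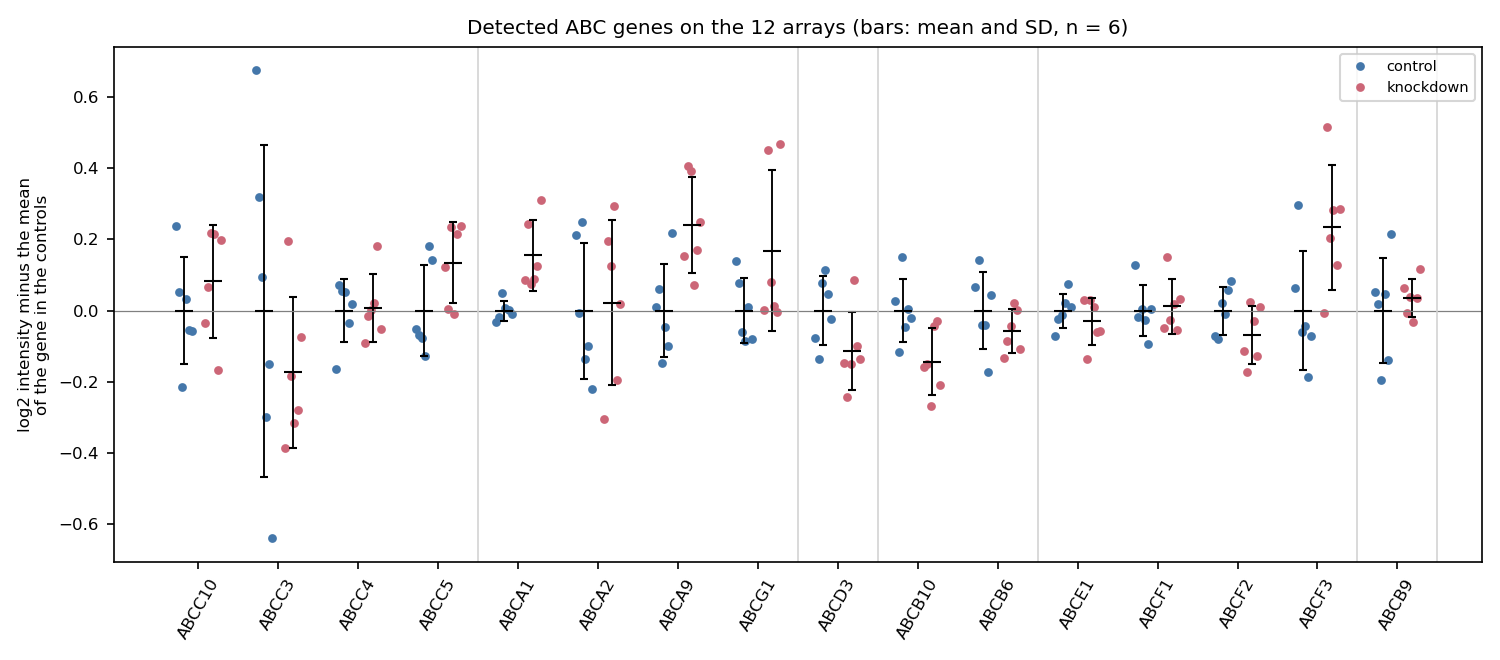
Log2 intensity of the brightest probe of each of the 16 detected ABC genes on each array, minus the mean of that gene in the controls (vertical axis); points are arrays, and black bars are the mean and SD of 6. The 6 knockdown arrays of ABCA1 lie above its 6 controls, and the controls of ABCC3 spread most widely.

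ABCA1 and ABCG1 are classic LXR targets. The LXR element is a direct repeat of AGGTCA with 4 bases between the copies (DR4, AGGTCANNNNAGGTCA). In the 250 bases before the start it was searched on both strands, allowing 2 of the 12 repeat letters to differ, and was found in 236 of 15033 promoters (1.57%). No promoter of ABCG1 was among the 34 at hand, so ABCG1 was not searched. Of the 34 ABC promoters 2 held a match of this kind, those of ABCA1 and ABCD2. In ABCA1 it lay 69 to 54 bases before the start, on the strand opposite to the one printed, and is in capitals here because ABCA1 is the gene whose groups separated. A match of letters is no evidence that the site was bound in these cells.
ABCA1, chr9:104928156-104928255, minus strand: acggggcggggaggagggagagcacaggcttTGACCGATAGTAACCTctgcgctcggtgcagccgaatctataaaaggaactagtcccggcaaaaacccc

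The other genes of sterol efflux and the regulators of ABC genes were taken from lists. None of 9 detected sterol efflux partners and LXR targets passed, of 12 with a probe among the 13 listed. An unadjusted limma p under 0.05 was found for 3 (15.0% of all detected genes had such a p, and 0.389% passed). The median log2 fold change of the 9 was 0.03. PLTP, the phospholipid transfer protein, had -0.14, NPC1, which releases cholesterol from lysosomes, had 0.12, and MYLIP, an LXR target that degrades the LDL receptor, had 0.07 (adjusted p from 0.251 to 0.323). None of 14 detected regulators passed, of 17 with a probe among the 21 listed, and 2 had an unadjusted limma p under 0.05. PPARG, a fatty acid receptor upstream of LXR in macrophages, had 0.11, RXRA, the partner of LXR, had 0.10, and YBX1, a factor linked to ABCB1 transcription, had -0.07 (adjusted p from 0.276 to 0.419). Without knockdown 2 and 6 PPARG had 0.07 and RXRA 0.06. NR1H3, which encodes LXR alpha, was detected on every array and had 0.03 (limma adjusted p = 0.83). SREBF1, also on the list of regulators, had -0.06 (limma adjusted p = 0.737). Without knockdown 2 and 6 NR1H3 had -0.04 and SREBF1 -0.16.

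ABCD3 (PMP70), the peroxisomal importer of branched and bile acid acyl groups, was the 1 detected peroxisomal gene. It had 9.43, 9.57 and 9.68 in the controls and 9.32, 9.42 and 9.65 in the knockdown. On 4 of 6 knockdown arrays it lay below every control, but knockdown 4 at 9.65 was among the high values, and the groups overlapped. The log2 fold change was -0.11 ± 0.06 (limma adjusted p = 0.402; interval -0.24 to 0.02). ABCD2, its paralogue for very long chain fatty acids, was detected on no array by either probe. None of 10 detected genes on the list of peroxisomal partners passed, of 11 with a probe among the 14 listed. An unadjusted limma p under 0.05 was found for 1 of the 10, against 15.0% of all detected genes. The 10 include MMACHC and LMBRD1, cobalamin proteins that are not peroxisomal, and the list also held PMP22, a myelin protein. ACSL1, an acyl-CoA ligase, had 0.17, PEX5, the import receptor, had -0.06, and HSD17B4, an enzyme of peroxisomal beta-oxidation, had -0.07 (adjusted p from 0.203 to 0.529).

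Of the mitochondrial genes, ABCB10, an inner membrane protein needed for heme synthesis, had 10.26, 10.37 and 10.53 in the controls and 10.11, 10.22 and 10.35 in the knockdown. Of the 6 knockdown arrays 4 lay below every control, and knockdown 4 and 5 lay within the control range. The log2 fold change was -0.14 ± 0.05 (limma adjusted p = 0.264; interval -0.26 to -0.03). ABCB6, a porphyrin transporter, had 8.82, 9.0 and 9.14 against 8.87, 8.93 and 9.02, a log2 fold change of -0.06 (interval -0.17 to 0.06), and ABCB8 was detected on no array. None of 9 detected heme and iron-sulfur partners passed, which are all those with a probe among the 10 listed. An unadjusted limma p under 0.05 was found for 1, against 15.0% of all detected genes. SLC25A37, the mitochondrial iron importer mitoferrin, had 0.15, GLRX5, a glutaredoxin of iron-sulfur assembly, had 0.08, and NFS1, the cysteine desulfurase, had 0.09 (adjusted p from 0.276 to 0.481). Without knockdown 2 and 6 NFS1 had 0.05.

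With scaling of the arrays to one median in place of quantile normalisation, the median of all detected probes shifted by 0.12. On that scale ABCD3 had 0.02, ABCB6 0.06, ABCE1 0.11 and ABCF2 0.07, all above 0 where quantile normalisation put them below. Relative to the shift ABCD3 was at -0.10, ABCB6 at -0.06 and ABCB10 at -0.12.

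No soluble member passed the test. ABCE1, which splits ribosomes after termination, had 10.99, 11.05 and 11.13 in the controls and 10.92, 11.03 and 11.09 in the knockdown, a log2 fold change of -0.03 (interval -0.12 to 0.06), and its second probe had 0.00 (interval -0.09 to 0.10). ABCF1, a partner of initiation factor eIF2, had 12.25, 12.34 and 12.47 against 12.29, 12.34 and 12.49, a log2 fold change of 0.01 (interval -0.09 to 0.11) with 0.03 on the second probe.

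ABCF2 gave opposite signs on its 2 detected probes. The brighter one had 10.79, 10.87 and 10.95 against 10.69, 10.80 and 10.89 (log2 fold change -0.07; interval -0.17 to 0.03). The dimmer one had 8.77, 8.91 and 9.07 against 8.91, 9.04 and 9.17 (log2 fold change 0.12; interval 0.00 to 0.25). ABCF3, a relative of the yeast factor GCN20, had 6.87, 7.0 and 7.35 in the controls and 7.05, 7.30 and 7.57 in the knockdown, with 1 of 6 knockdown arrays above every control. Its log2 fold change was 0.23 ± 0.09 (limma adjusted p = 0.286; interval 0.03 to 0.44), 0.15 without knockdown 2 and 6, 0.07 with the detected-probe count as a covariate and 0.12 without background correction.

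None of 8 detected ribosome recycling and eIF2 partners out of 9 passed (2 at an unadjusted limma p under 0.05, against 15.0% of all detected genes). PELO, which works with ABCE1 on stalled ribosomes, had 0.10, EIF2S2, a subunit of eIF2, had 0.15, and EIF2AK4 (GCN2), an eIF2 kinase, had 0.12 (adjusted p from 0.233 to 0.361). Without knockdown 2 and 6 EIF2AK4 had 0.07.

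**Figure D5:**
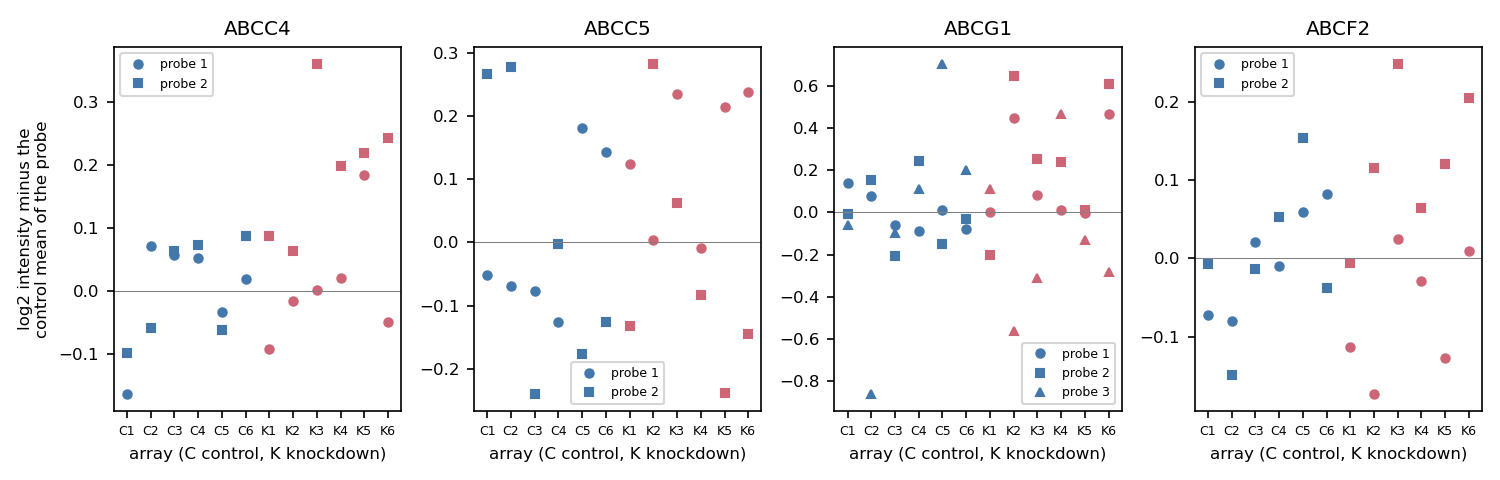
Log2 intensity minus the control mean of the same probe (vertical axis) on the 12 arrays for the detected probes of ABCC4, ABCC5, ABCG1 and ABCF2; circles are the brightest probe, squares and triangles its dimmer ones. The squares of ABCC4 and ABCF2 lie higher in the knockdown than their circles, and the triangles of ABCG1 spread most.

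Of the 7 ABC genes with several detected probes, 5 had log2 fold changes of opposite sign on them (ABCB9, ABCC5, ABCE1, ABCF2 and ABCG1). In ABCB9 both were near 0, at 0.04 (interval -0.10 to 0.17) and -0.02 (interval -0.14 to 0.09). Its brighter probe had 9.95, 10.17 and 10.35 in the controls and 10.11, 10.18 and 10.26 in the knockdown.

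The ABC proteins whose symbols do not begin with ABC were all detected, and none passed. TAP1 and TAP2, the peptide transporter of antigen presentation, had log2 fold changes of -0.0018 and 0.02, and CFTR, the chloride channel of ducts, had 0.13 ± 0.16 (limma adjusted p from 0.741 to 0.986). None of the 3 had an unadjusted limma p under 0.05. Without knockdown 2 and 6 TAP1 had -0.02, TAP2 0.05 and CFTR 0.22.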

How the data were processed

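The labels put 12 samples into 6 controls and 6 knockdown samples by their titles. Per the file headers, the deposited table held a linear signal intensity and a detection p-value per probe and array, and the authors' processed table held intensities equal to a quantile normalisation of that signal to within 3.33e-06. Limma appears in the submitters' processing notes with no role. For the detection p-values no software is stated in the labels or headers.

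Signals were corrected and normalised with neqc of limma 3.58.1 (R 4.3.3; offset 16, quantile, log2), and the background correction gave wider fold changes for dim ABC probes than no correction (ABCF3 0.23 against 0.12). Probes with a detection p under 0.05 on at least 6 arrays were tested with lmFit and eBayes on the group term. Benjamini-Hochberg adjustment was over all 16495. In simulated data the method recovered 6 of 40 log2 changes of 0.2, 27 of 40 of 0.4 and 39 of 40 of 1. Most changes of 0.2, near the largest of the ABC genes, were thus missed, so a gene that did not pass is not shown to be unchanged. All p-values are two-sided, and intervals are 95%. The number of arrays limits precision. Of the probes, 30113 had 1 symbol, 8 several and 17202 none; symbols were updated through RefSeq (GRCh38.p14) for 30074. A gene is represented by its brightest detected probe. ABC probes were picked by symbol. All detected drug efflux and peroxisomal genes are named, with up to 4 genes of other classes by smallest p. Of each other list 3 genes by smallest p are named, and of the regulators also NR1H3 and SREBF1. Promoters were compared, and shown, after detection was known. Members, classes and lists were chosen with earlier results of these data known. Figures were drawn with matplotlib 3.10.9.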

Additional observations from a re-analysis of the deposited data

Results flagged for a closer look

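In none of 34 sets of 6 arrays (the 16 detected ABC genes and TIMP1 in each group) did the highest or lowest array stand apart past Dixon's limit for 6 values.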

How the results depend on the processing

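No ABC gene passed the threshold under any of the 24 alternative settings or at a threshold of 0.01. Of 380 values of single genes under these settings 357 kept their direction and 23 reversed it, and 7 of the 16 genes never reversed (ABCA1, ABCA9, ABCB10, ABCC3, ABCC5, ABCF3 and ABCG1). Of these, ABCG1 came as low as 0.00038 and ABCB10 as near 0 as -0.0061. All reversals were of genes whose log2 fold change was between -0.11 and 0.08. With cyclic loess ABCA2 had -0.011 and ABCC4 -0.0028. With scaling to the median alone ABCB6 had 0.059, ABCD3 0.019, ABCE1 0.11 and ABCF2 0.070. With the mean of all probes ABCF2 had 0.028. With the number of detected probes as a covariate ABCA2 had -0.10, ABCC10 -0.015, ABCE1 0.025 and ABCF1 -0.053. Without knockdown 2 and 6 ABCA2 had -0.020, ABCE1 0.0026 and ABCF1 -0.028. Leaving out single arrays gave -0.032 to 0.088 for ABCA2, -0.0030 to 0.078 for ABCB9, -0.027 to 0.028 for ABCC4 and -0.016 to 0.037 for ABCF1. The class medians moved with scaling to the median alone, to 0.13 for drug efflux, 0.28 for lipid, 0.019 for peroxisomal, 0.026 for mitochondrial and 0.12 for ABCE and ABCF genes, where the median of all probes shifted by 0.12. The lipid median was 0.046 with the covariate and 0.059 without knockdown 2 and 6. The median of ABCE and ABCF genes was -0.030 with the stricter detection filter, which removed ABCF3, and 0.024 with the mean of all probes. TIMP1, at -0.19, passed with the stricter filter (limma adjusted p = 0.0449) and with an intensity trend and robust fit (adjusted p = 0.0249). Over all probes limma called 50. There were 1 at a threshold of 0.01, 32 with cyclic loess, 11 with median scaling, 11 without a detection filter, 90 with the intensity trend and robust fit, 0 with the covariate, 2 without knockdown 2 and 6 and between 1 and 145 without single arrays. The cause was not tested. With the replicate number as a block there were 28. Same-numbered arrays had correlations between -0.11 and 0.19 and 2 of 6 knockdown arrays correlated best with their own number, so the numbers were not taken as pairs. ABCC3, ABCC10, ABCA2 and the dimmest detected probe of ABCG1 were not detected on every array, and signal over background limits their precision.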

Other observations

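Genes that make the conjugates exported by ABCC pumps, and scaffolds that hold transporters at the membrane, were taken from lists. Of 13 listed genes 12 were detected, those of glutathione and the sulfotransferase SULT1A1. The 1 not detected was UGT1A6, the only glucuronide gene on the list, so nothing is shown for glucuronide conjugation. None of the 12 passed, with 3 at an unadjusted limma p under 0.05 (15.0% of all detected genes) and a median log2 fold change of 0.03. GSTM3, a glutathione transferase, had 0.29 ± 0.08 (SE; adjusted p = 0.179), and the subunits of the enzyme that starts glutathione synthesis had opposite signs, GCLM at -0.21 and GCLC at 0.12 (adjusted p = 0.189 and 0.335). Knockdown 2 and 6 were the lowest arrays for GCLM, which had -0.13 without them. Of 7 scaffolds 6 were detected and none passed, with 2 at an unadjusted limma p under 0.05. NHERF1, a PDZ protein that binds CFTR and ABCC4, had 0.10, BSG (basigin) -0.10 and RDX (radixin) -0.11, which was 0.05 without knockdown 2 and 6.

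Of the pseudogenes whose symbols have a P after the digits, ABCC6P2 passed the detection filter. It was detected on 1 of 6 control and 5 of 6 knockdown arrays, so it passed through the knockdown arrays, and no fold change is given. Its log2 intensity ran from 6.20 to 6.58 in the controls and from 6.37 to 7.04 in the knockdown, with knockdown 2 and 6 the highest arrays. ABCC6P2 is a near copy of part of another ABC gene, and the signal of both cannot be told apart here. ABCA11P was detected on 3 arrays, and ABCA17P and ABCC6P1 on none.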
